A study of Homo sapiens with 12 samples.

Results

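The circular RNAs (circRNAs) described here arise from genes of WNT signalling in 2 human colorectal cancer cell lines. They are the rows of the deposited circRNA table whose host gene is 1 of 55 named WNT pathway genes. Of the 55 genes, 40 are hosts in the table and together account for 166 of its 17938 circRNAs, against 5957 host genes in all. The other 15 genes are not analysed here: TLE4, WLS, PORCN, FZD3, FZD6, BTRC, GSK3A, TCF7, BCL9L, ZNRF3, CSNK1G2, DVL3, DVL2, DAAM1 and PRICKLE1. Rows were picked by gene name and not by their reads, but the gene list was drawn up with earlier results of these data known.

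The 4 groups held 3 libraries each. HCT116 and Lovo (the labels' spelling) cells entered as the sensitive, parental line and as its 5-Fu resistant derivative, and both lines were grown in medium with serum. 5-Fu, or 5-fluorouracil, is a pyrimidine analogue used against colorectal cancer. The resistant cells were raised in steps from 0.1 to 2 μg/ml 5-Fu and lived through at least 3 days at the highest dose, per the labels. The labels tie no library to a culture or to a selection of its own, so the spread that p-values rest on may be purely technical. Other changes that arose while a derivative was grown cannot be told apart from resistance. Fewer cells with a transcript and fewer copies per cell cannot be told apart in such bulk RNA.

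In the canonical WNT pathway, secreted WNT proteins bind a Frizzled receptor with the co-receptor LRP5 or LRP6. Without the ligand, a destruction complex built on AXIN1 and APC marks beta-catenin (CTNNB1) for breakdown; with it, beta-catenin enters the nucleus and joins TCF and LEF factors. In the intestine this pathway maintains the crypt stem cells, and its activation is the usual opening event of colorectal cancer. HCT116 cells are known to carry a stabilising CTNNB1 mutation and LoVo cells a truncated APC. Further branches act through cell polarity proteins, calcium, the phosphatase calcineurin and NFAT transcription factors. CircRNAs form when a downstream splice donor joins an upstream acceptor. The reads counted here cross that back-splice junction, so they measure the circle and not the linear mRNA or the protein of the gene.

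Libraries held between 5654 and 10535 junction reads. The WNT hosts held 1021 of 92237 reads, or 1.11%, so the data describe small numbers. By pooled reads, 38 of the 40 listed hosts had at least 1 read, 20 had 10 or more, 18 had 1 to 9, and LGR4 and ROCK2 were listed at 0. Of 18 intestinal epithelial marker genes, 9 had reads: EPCAM, CDH1, VIL1, CDH17, FAT1, MET, ESRP1, GRHL2 and TJP1. Their summed levels were 9249 to 14821 CPM (junction reads scaled to a common library total) over the libraries, and the sum was not split by gene. The other 9, CDX2, CDX1, KRT8, KRT18, KRT19, KRT20, LGALS4, ELF3 and CGN, were at 0. None of 10 fibroblast, 11 immune or 7 endothelial marker genes was among the hosts analysed.

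The WNT hosts were close to the whole table in detection, circBase records and exonic share. They had more intronic and fewer sense overlapping circRNAs. Of the 166 circRNAs, 29 were listed at 0 reads (17.5%, against 16.9% of all circRNAs), 76 were seen in 1 library (45.8% against 43.7%), and 4 were seen in all 12 libraries. A circBase record existed for 101 (60.8% against 62.3%). By the authors' class, 131 were exonic (78.9% against 78.8%), 13 overlapped exons in sense (7.83% against 14.9%) and 22 were intronic (13.3% against 5.93%). CTBP2, RUVBL1 and LRP6 supplied the most intronic reads, with 24, 13 and 11. A host held 4.15 circRNAs on average, against 3.01 over the table, and the median exonic circle was predicted at 679 bases, against 571.

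The largest parts came from 2 genes. CSNK1G3 had 210 reads (20.6% of the WNT reads) and NFATC3 had 201 (19.7%), which together made 40.3%. LRP6 followed with 70, PPP3CA with 49, CTBP2 and RYK with 47 each, CSNK1G1 with 45, AXIN1 and LRP5 with 39 each, and NFAT5 with 36. TBL1XR1 had 29, FBXW11 24, GSK3B 19, MACF1 18, SENP2 and RUVBL1 16 each, TCF7L2 15, VANGL1 13, CSNK1A1 12 and ROCK1 10. The genes best known as tumour drivers in this pathway were near the floor: APC had 7 reads, AXIN2 had 4, RNF43 had 2 and CTNNB1 had 1.

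**Figure D1:**
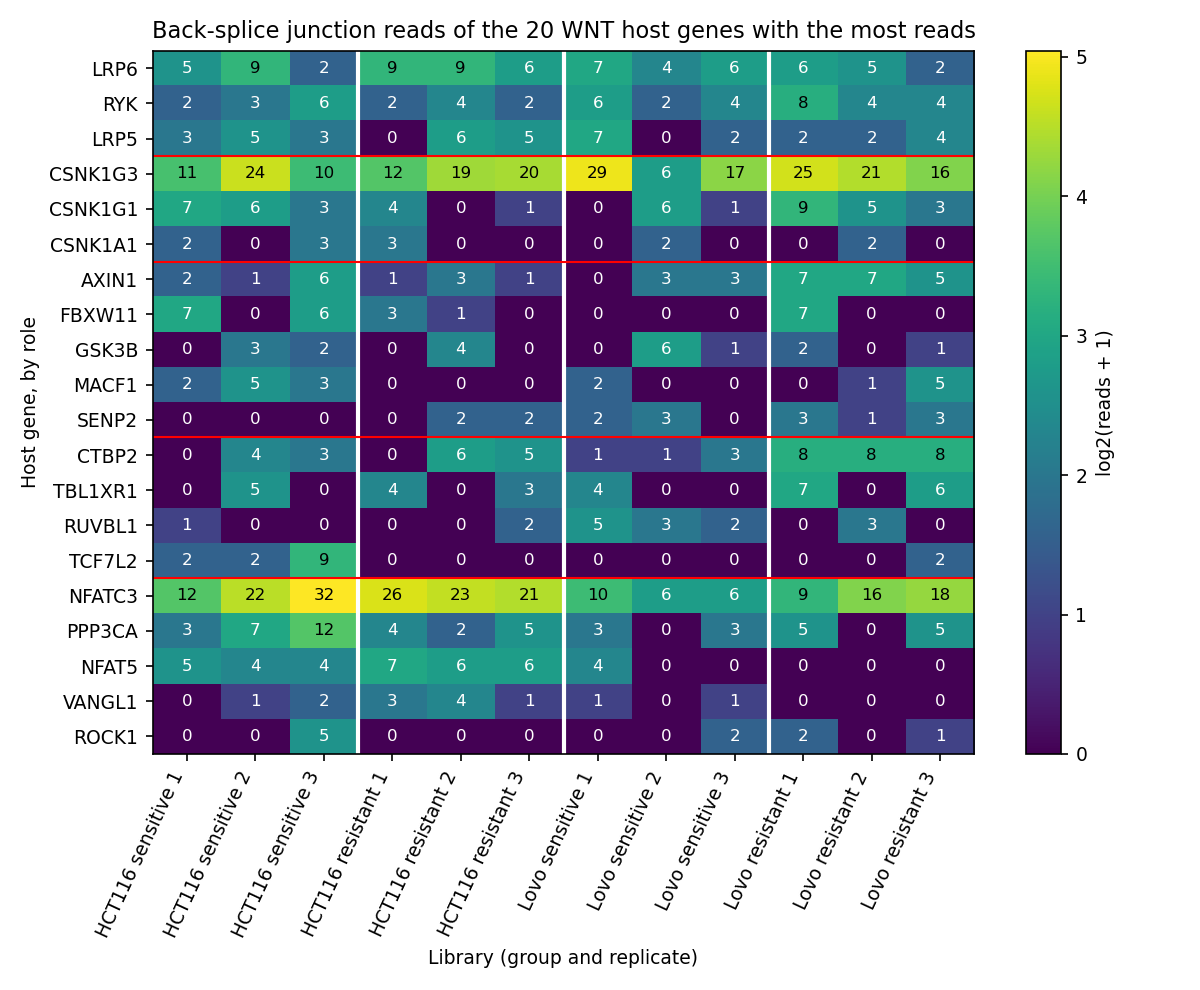
Junction reads of the 20 WNT host genes with the most pooled reads (rows, ordered by role between the red lines) in the 12 libraries (columns, groups separated by white lines); the number is the read count and the colour is log2(reads + 1). CSNK1G3 and NFATC3 have 6 or more reads in each of the 12 libraries, NFAT5 has reads in 1 of the 6 Lovo libraries, and most other cells hold 0 to 9 reads.

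A few junctions supplied most of these reads. All 5 CSNK1G3 circles with reads started at the same splice acceptor (chromosome 5, position 122881111, hg19, plus strand), and 186 of the 210 reads came from hsa_circ_0001522, an exonic circle of 536 predicted bases ending at 122893258. NFATC3 had 10 circles with reads, of which 4 shared the start at chromosome 16, position 68155890 (plus strand), and held 181 of 201 reads. Its most-read circles were hsa_circ_0005615, which ends at 68157024 (1135 bases, 92 reads), and hsa_circ_0000711, which ends at 68160513 (1298 bases, 83 reads). The NFATC3 circles therefore split their reads, while CSNK1G3 had 1 dominant product. PPP3CA was the most dispersed of the well-read hosts, with 49 reads over 11 circles and no more than 10 in any of them.

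**Figure D2:**
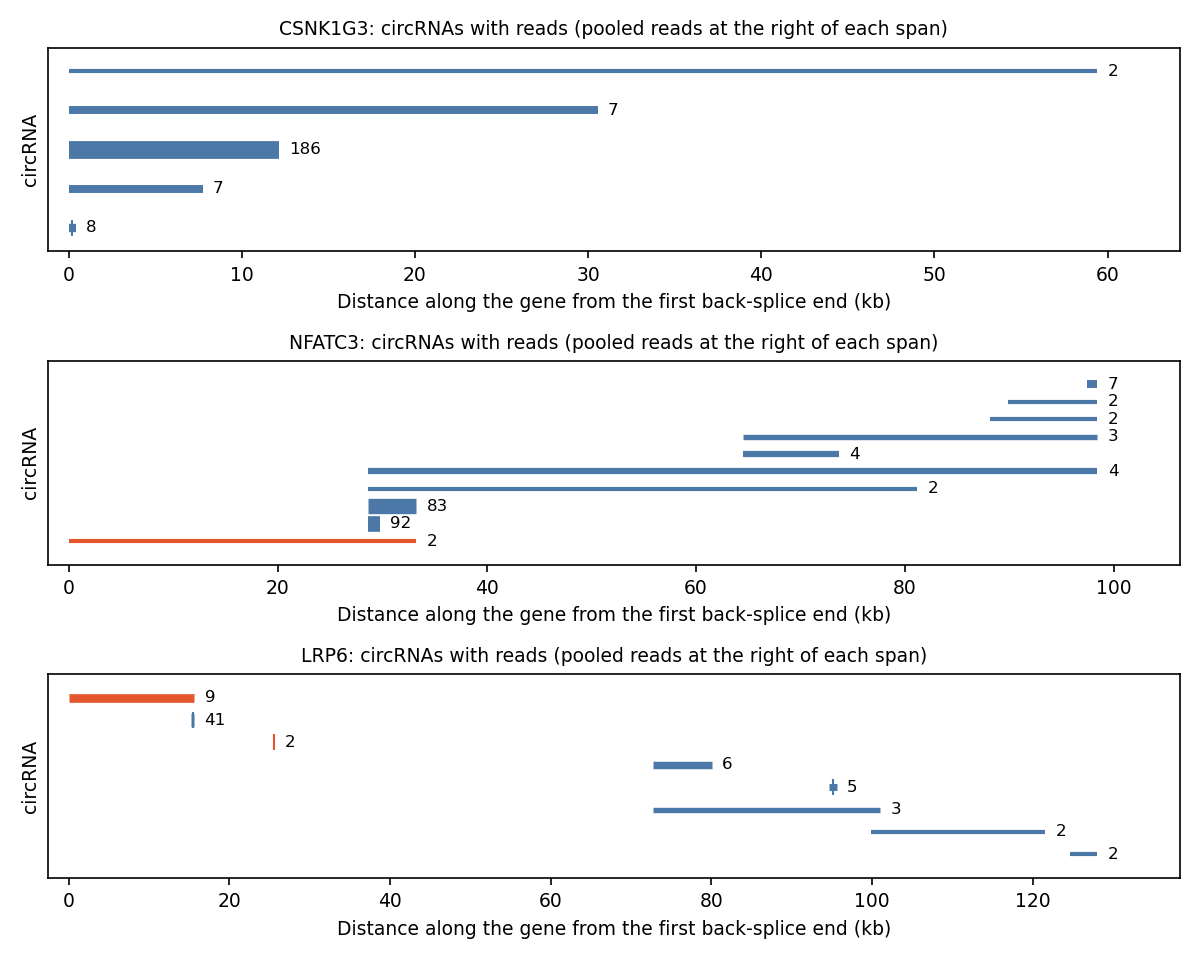
Circles with reads from CSNK1G3, NFATC3 and LRP6, drawn as spans along each gene in kilobases from the first back-splice end; the number is the pooled reads, thicker bars have more reads, blue is exonic and red is intronic by the authors' class. The 5 CSNK1G3 spans share a left end, 4 NFATC3 spans start together and include those with 92 and 83 reads, and 41 of 70 LRP6 reads lie in 1 short span.

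Circles whose genomic span equals their predicted length, and which thus hold no intron, were frequent among the reads. There were 9 such exonic circRNAs, or 6.87% of the exonic WNT circRNAs, against 4.36% over the table. They held 234 reads, which is 22.9% of the WNT reads, against 10.2% of reads over the table. NFATC3 hsa_circ_0005615 alone held 92 of the 234. The 9 circles belonged to AXIN1, CSNK1G1, CSNK1G3, LRP5, LRP6, NFAT5, NFATC3 and PPP3CA. Those with the most reads after NFATC3 hsa_circ_0005615 were LRP6 hsa_circ_0000378 (chromosome 12, 12397196 to 12397589, minus strand, 41 reads), AXIN1 hsa_circ_0005838 (chromosome 16, 396148 to 397106, minus strand, 29 reads) and NFAT5 hsa_circ_0006845 (chromosome 16, 69729039 to 69729282, plus strand, 26 reads).

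Taking the roles in order, 10 genes belonged to ligand secretion and the receptors, and 4 of them had reads, 158 in all. LRP6 encodes a co-receptor whose tail recruits AXIN1. It had 5, 9 and 2 reads in the sensitive and 9, 9 and 6 in the resistant HCT116 libraries, with 7, 4 and 6 and then 6, 5 and 2 in those of Lovo. These values overlapped in each comparison, and the main LRP6 circle, hsa_circ_0000378, was found in all 12 libraries with 11, 12, 9 and 9 reads over the same groups.

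RYK encodes a WNT-binding receptor with an inactive kinase domain. It had 2, 3 and 6 reads in the sensitive and 2, 4 and 2 in the resistant HCT116 libraries, with 6, 2 and 4 and then 8, 4 and 4 in those of Lovo. Its 2 main circles share an end at chromosome 3, position 133914026 (minus strand), and were spread differently over the lines. hsa_circ_0003633 (start 133894453) had 9 reads in HCT116 and 20 in Lovo, while hsa_circ_0003113 (start 133876965) had 10 in HCT116 and 1 in Lovo. Neither reached the depth for a test, and the pair was singled out after its values were seen.

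LRP5, the other co-receptor, had 3, 5 and 3 reads in the sensitive and 0, 6 and 5 in the resistant HCT116 libraries, with 7, 0 and 2 and then 2, 2 and 4 in those of Lovo. Of its 7 circles with reads, 5 started at chromosome 11, position 68115315 (plus strand), and held 31 of 39 reads. LRP5L is a partial near-copy of this gene, so LRP5 counts are uncertain. RNF43, a ubiquitin ligase that removes Frizzled from the membrane, had 2 reads, both in sensitive Lovo.

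The transducers and casein kinases numbered 11 genes, of which 8 had reads, 279 in all. CSNK1G3 and CSNK1G1 encode gamma isoforms of casein kinase 1, membrane-bound kinases that phosphorylate LRP6. CSNK1G3 had 11, 24 and 10 reads in the sensitive and 12, 19 and 20 in the resistant HCT116 libraries, with 29, 6 and 17 and then 25, 21 and 16 in those of Lovo. The groups overlapped throughout, and sensitive Lovo held both the highest and the lowest library.

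CSNK1G1 was less abundant and more scattered. It had 7, 6 and 3 reads in the sensitive and 4, 0 and 1 in the resistant HCT116 libraries, with 0, 6 and 1 and then 9, 5 and 3 in those of Lovo. Pooled, this was 16 reads in sensitive and 5 in resistant cells for HCT116 and 7 and 17 for Lovo, with libraries of the groups overlapping in both lines. Of its main circles, hsa_circ_0001955 (chromosome 15, 64495281 to 64508912, minus strand) had 9 of its 13 reads in resistant Lovo, and hsa_circ_0007949 (64592518 to 64592922) had 6 of its 11 in sensitive HCT116. CSNK1A1, the kinase that primes beta-catenin for GSK3B, had 12 reads spread over 5 libraries, with no more than 3 in any. CSNK1E and the scaffold gene DVL1 had 3 reads each, and CSNK1D, CSNK2A1 and CCDC88C had 2 each.

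Of 13 genes of the destruction complex and of beta-catenin turnover, 11 had reads, 147 in all. AXIN1, the scaffold of the complex, had 2, 1 and 6 reads in the sensitive and 1, 3 and 1 in the resistant HCT116 libraries. In Lovo it had 0, 3 and 3 reads in sensitive and 7, 7 and 5 in resistant cells. Each resistant Lovo library was thus above each sensitive one, while the HCT116 groups overlapped. Both of its circles share an end at chromosome 16, position 397106, and both had more reads in resistant than in sensitive Lovo: 12 against 4 for hsa_circ_0005838 and 7 against 2 for hsa_circ_0003617.

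FBXW11 encodes an F-box protein that recognises phosphorylated beta-catenin. Its HCT116 reads were 7, 0 and 6 in the sensitive and 3, 1 and 0 in the resistant libraries, against 0 in each sensitive Lovo library, and 7, 0 and 0 in resistant Lovo. The pooled HCT116 reads were 13 in sensitive and 4 in resistant cells, a level 3.37-fold lower in resistant cells (95% interval 1.04 to 14.2), but the libraries overlapped. FBXW11 was below the depth required for a test, and with no depth requirement its edgeR adjusted p was 0.747. All 7 resistant Lovo reads came from replicate 1. MACF1, a large cytoskeletal linker, had 2, 5 and 3 reads in sensitive HCT116 and 0 in each resistant HCT116 library, against 2, 0 and 0 and then 0, 1 and 5 in Lovo. The MACF1 reads were at least 3.46-fold lower in resistant than in sensitive HCT116, taking 3 reads over the group as the floor. They were at least 2.23 and 2.27-fold lower without resistant replicate 1 or 3. These limits take the sensitive reads as exact.

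GSK3B, the kinase of the complex, had 0, 3 and 2 reads in the sensitive and 0, 4 and 0 in the resistant HCT116 libraries, with 0, 6 and 1 and then 2, 0 and 1 in those of Lovo. SENP2, a SUMO protease, had no read in sensitive HCT116 and 0, 2 and 2 in resistant HCT116, with 2, 3 and 0 and then 3, 1 and 3 in Lovo. Both genes overlapped between resistant and sensitive cells in each line. The tankyrase genes TNKS2 and TNKS, whose products mark AXIN for breakdown, had 9 and 4 reads, and 6 of the TNKS2 reads were in sensitive HCT116 against 0 in resistant HCT116. APC reads came from 2 libraries alone, 4 from sensitive HCT116 and 3 from resistant Lovo. PPP2R5E, a regulatory subunit of protein phosphatase 2A, had 6 reads, all in HCT116, and the AXIN scaffold gene AXIN2 had 4.

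Summed over the role, the destruction complex circles made a smaller share of junction reads in resistant than in sensitive HCT116. The 3 sensitive HCT116 libraries had 20, 13 and 23 such reads and the resistant ones 7, 10 and 3, which is 0.229% ± 0.0872 and 0.0778% ± 0.0465 of all junction reads (SD, n = 3 each). The lowest sensitive library, at 0.147%, was above the highest resistant one, at 0.127%. That sensitive library, replicate 2, had 13 role reads, of which 5 were of MACF1 and 4 of APC. The separation of the HCT116 groups thus rests on a few reads of single genes. In Lovo the order was the other way, with 6, 12 and 5 reads in sensitive and 21, 9 and 18 in resistant libraries, or 0.127% ± 0.0663 and 0.216% ± 0.0777, and these overlapped. The difference of means was -0.151 percentage points in HCT116 and stayed between -0.192 and -0.105 when any 1 library was left out. In Lovo it was 0.0891 points, 0.0583 to 0.133 with any 1 library left out, and 0.0371 without AXIN1. Role sums were compared after the role values had been seen and carry no test.

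**Figure D3:**
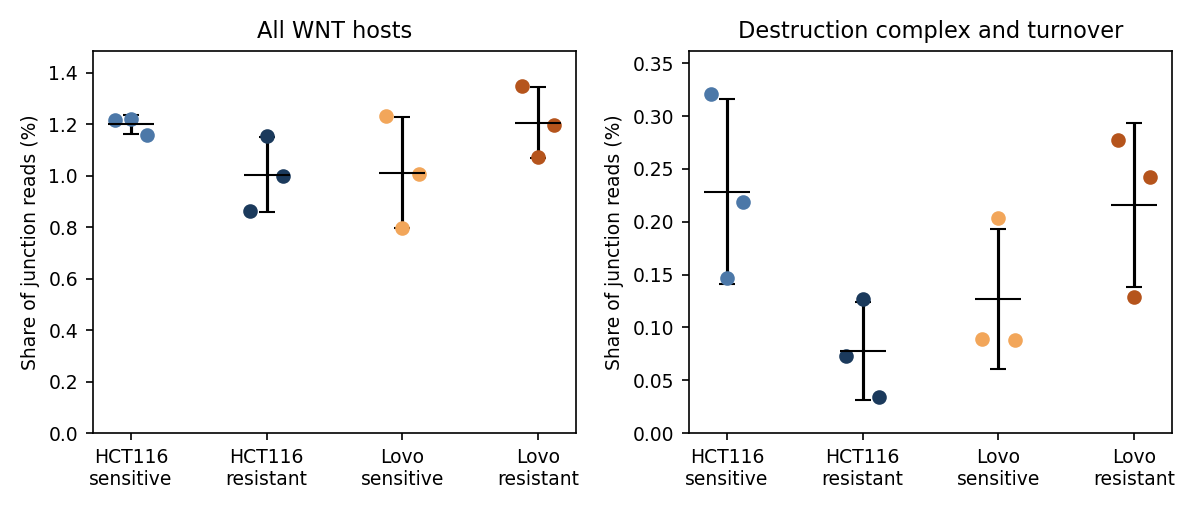
Share of junction reads (percent) from all WNT hosts (left) and from the destruction complex and turnover genes (right) in each group; points are libraries, horizontal lines are means and bars are ± 1 SD over 3 libraries. The sensitive HCT116 libraries lie above the resistant ones in both panels, and the Lovo groups overlap in both.

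The nuclear complex had 9 of 12 genes with reads, 125 in all. CTBP2 encodes a co-repressor that also acts in TCF complexes. It had 0, 4 and 3 reads in the sensitive and 0, 6 and 5 in the resistant HCT116 libraries, 1, 1 and 3 in sensitive Lovo, and 8 in each resistant Lovo library. The resistant Lovo libraries were above all sensitive ones, and the HCT116 groups overlapped. Several junctions had more reads in resistant Lovo: hsa_circ_0005418 (chromosome 10, 126727566 to 126799662, minus strand, exonic) had 1 read in sensitive and 9 in resistant Lovo, and hsa_circ_0004875 (126799559 to 126811437, intronic) had 3 and 6.

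TCF7L2, the main TCF factor of the intestinal epithelium, was read mostly in 1 group. It had 2, 2 and 9 reads in sensitive HCT116, 0 in each resistant HCT116 and each sensitive Lovo library, and 0, 0 and 2 in resistant Lovo. Against the same floor of 3 reads over the group, and with the sensitive reads taken as exact, resistant HCT116 was at least 4.49-fold below sensitive HCT116. With libraries left out it was 2.28-fold without sensitive replicate 3, and 2.90, 3.12 and 2.96-fold without resistant replicate 1, 2 or 3. In sensitive HCT116 7 of the 13 reads were from hsa_circ_0020050 (chromosome 10, 114799784 to 114849299, plus strand) in replicate 3 alone.

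TBL1XR1, a subunit of a co-regulator complex, had 0, 5 and 0 reads in the sensitive and 4, 0 and 3 in the resistant HCT116 libraries, with 4, 0 and 0 and then 7, 0 and 6 in those of Lovo. RUVBL1, an ATPase that binds beta-catenin, had 1, 0 and 0 and then 0, 0 and 2 reads in HCT116, against 5, 3 and 2 in sensitive and 0, 3 and 0 in resistant Lovo. For both genes the resistant and sensitive groups overlapped in each line. Each sensitive Lovo library was above the 6 HCT116 libraries for RUVBL1, which had 3 reads in HCT116 and 13 in Lovo (ratio 0.199, 0.0364 to 0.724). RUVBL1 was below the depth required for a test, and with no depth requirement the line contrast had an edgeR adjusted p of 0.614. NLK, a kinase that acts on TCF factors, had 9 reads of a single circle, hsa_circ_0002103. LEF1 had 3 reads, and BCL9, TCF7L1 and TBL1X had 2 each.

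The polarity and calcium branches had 6 of 9 genes with reads and the most reads of any role, 312, or 30.6%. NFATC3 encodes a transcription factor that calcineurin sends to the nucleus. It had 12, 22 and 32 reads in the sensitive and 26, 23 and 21 in the resistant HCT116 libraries, with 10, 6 and 6 and then 9, 16 and 18 in those of Lovo. By level the 3 sensitive Lovo libraries and resistant Lovo replicate 1 were below every HCT116 library, and resistant Lovo replicates 2 and 3 lay within the HCT116 range.

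NFAT5 encodes a related factor that responds to osmotic stress and is not governed by calcineurin. It had 5, 4 and 4 reads in the sensitive and 7, 6 and 6 in the resistant HCT116 libraries. In Lovo it had 4, 0 and 0 reads in sensitive cells and 0 in each resistant library. All 4 Lovo reads thus lay in 1 library, sensitive replicate 1, which overlapped the HCT116 range. These 4 reads were of hsa_circ_0006845, the main NFAT5 circle, which in HCT116 had 8 reads in sensitive cells and 14 in resistant ones.

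PPP3CA, the catalytic subunit of calcineurin, had 3, 7 and 12 reads in the sensitive and 4, 2 and 5 in the resistant HCT116 libraries, with 3, 0 and 3 and then 5, 0 and 5 in those of Lovo. VANGL1, a membrane protein of planar cell polarity, had 0, 1 and 2 and then 3, 4 and 1 reads in HCT116, against 1, 0 and 1 and then 0 in each resistant library in Lovo. Its 13 reads were all of hsa_circ_0002623. ROCK1, which encodes a protein kinase that acts on the actin cytoskeleton, had 10 reads, of which 5 were in sensitive HCT116 replicate 3, and PPP3CB had 3. For PPP3CA, VANGL1 and ROCK1 alike the resistant and sensitive groups overlapped in each line. Between the lines VANGL1 had 11 reads in HCT116 and 2 in Lovo (ratio 4.74, 1.03 to 44.0), and each resistant HCT116 library was above the resistant Lovo libraries. VANGL1 too was below the depth required for a test, and with no depth requirement this contrast had an edgeR adjusted p of 0.554.

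The tests asked whether circRNA output of a host differed between resistant and sensitive cells of each line, whether that effect differed between the lines, and whether the lines differed. Counts were summed per host gene, and 580 host genes were deep enough to be tested, 9 of them WNT hosts: AXIN1, CSNK1G1, CSNK1G3, CTBP2, LRP6, NFAT5, NFATC3, PPP3CA and RYK. Single circRNAs were tested too, 300 in all, of which 4 were of WNT hosts: NFATC3 hsa_circ_0005615 and hsa_circ_0000711, CSNK1G3 hsa_circ_0001522 and LRP6 hsa_circ_0000378. A call was an adjusted p under 0.05 in the quasi-likelihood test of edgeR. The depth requirement was met by NFAT5 through HCT116 libraries alone and by AXIN1 through resistant Lovo libraries alone. RYK met it through Lovo libraries alone. CTBP2 met it through the resistant Lovo libraries and 1 resistant HCT116 library, so such hosts could enter only where some group was high.

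Between the lines, 2 of 9 WNT hosts were called, against 20% of all host genes tested, so the share called was near the background. Both were higher in HCT116, against 10.3% of host genes called in that direction. NFAT5 stood at 801, 479 and 420 CPM in sensitive and 793, 788 and 702 in resistant HCT116, against 567, 0 and 0 in sensitive Lovo and 0 in resistant Lovo. Over the line this was 664 ± 171 CPM in HCT116 and 94.5 ± 231 in Lovo (SD, n = 6 libraries each). The NFAT5 log2 fold change was 3.49 ± 1.10 (SE, edgeR adjusted p = 0.0113), and its 32 against 4 pooled reads made a ratio of 6.90 (95% interval 2.45 to 26.8). NFAT5 had met the depth requirement through HCT116 libraries alone, the line then called higher, so its entry was not blind to this difference. With no depth requirement its edgeR adjusted p was 0.0453. The call was kept in 20 of 21 alternatives and lost when the sensitive groups alone were fitted (1.41, edgeR adjusted p = 0.503). It was 5.32 without sensitive Lovo replicate 1, the library that held the Lovo reads.

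NFATC3 stood at 1922, 2636 and 3362 CPM in sensitive and 2945, 3021 and 2456 in resistant HCT116, against 1418, 908 and 1017 in sensitive and 1150, 2112 and 2449 in resistant Lovo. The means were 2724 ± 504 and 1509 ± 630.5 CPM (SD, n = 6 each). Its log2 fold change was 0.90 ± 0.30 (SE, edgeR adjusted p = 0.0176), from 136 against 65 reads, a ratio of 1.80 (1.33 to 2.46). This call was the less firm, as it was lost in 10 of 22 alternatives. It failed without sensitive HCT116 replicate 3 (edgeR adjusted p = 0.127), resistant HCT116 replicate 1 (0.0534) or 2 (0.0846), sensitive Lovo replicate 3 (0.0709), or resistant Lovo replicate 1 (0.132) or 2 (0.0700). The fold change was 1.25 in the sensitive groups alone (edgeR adjusted p = 0.0529) and 0.56 in the resistant groups alone (0.470).

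Neither NFATC3 circle passed the test, though both had the sign of the host sum. hsa_circ_0005615 had 60 HCT116 and 32 Lovo reads (log2 fold change 0.88 ± 0.47, edgeR adjusted p = 0.145), and hsa_circ_0000711 had 55 HCT116 and 28 Lovo reads (0.78 ± 0.48, edgeR adjusted p = 0.211). CSNK1G3 had the opposite sign, with 96 reads in HCT116 and 114 in the shallower Lovo libraries (-0.44 ± 0.28, edgeR adjusted p = 0.263). Its main circle had 78 and 108 reads (-0.64 ± 0.30, edgeR adjusted p = 0.0933, the unadjusted value being 0.0317). None of the 4 WNT circRNAs was called in edgeR, against 25.3% of circRNAs tested, and 1 of the 4 had an unadjusted p under 0.05, against 39%.

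NFATC3 and NFAT5 lie near each other on chromosome 16, their circles spanning 68127259 to 68225678 and 69642288 to 69741023. The 3 other tested host genes within 5 Mb were SLC7A6, CIRH1A and TERF2. Their log2 fold changes between the lines were 0.27 ± 0.58, -0.03 ± 0.74 and -0.26 ± 0.75 (SE), and none was called in edgeR. With errors this wide they say little about the region, and a shared regional difference was not tested. AXIN1, the third tested WNT host of chromosome 16, had -0.87 ± 0.82. Over the 18 tested host genes of this chromosome that are not WNT hosts the median was 0.26, with 0 called higher in HCT116 and 1 called lower.

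**Figure D4:**
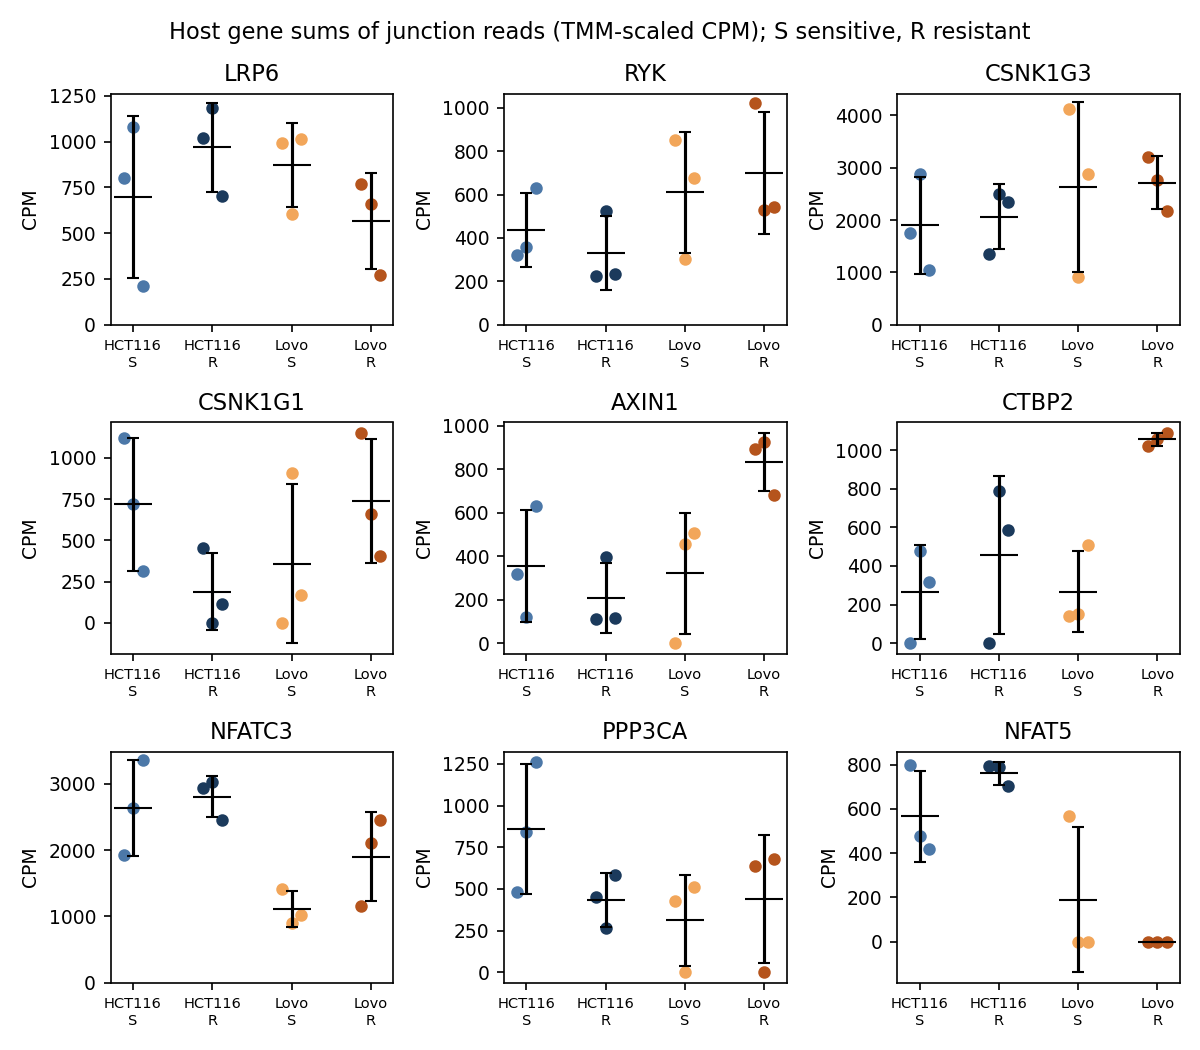
Junction read levels (CPM after TMM scaling) of the 9 tested WNT host genes in the 4 groups; points are libraries, horizontal lines are means and bars are ± 1 SD over 3 libraries, with a separate vertical scale for each gene. NFAT5 is at 0 in 5 of 6 Lovo libraries, the 3 resistant Lovo libraries are the highest of their line for CTBP2 and AXIN1, and the CSNK1G3 and LRP6 groups overlap.

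In HCT116, 0 of 9 WNT hosts were called between resistant and sensitive cells by edgeR, against 0.517% of host genes, and 0 of 9 had an unadjusted p under 0.05, against 6.38%. The smallest p belonged to CSNK1G1, with a log2 fold change of -1.75 ± 1.04 (edgeR adjusted p = 0.758), and -3.21 to -1.26 with any 1 library left out, the lowest value without resistant replicate 1. PPP3CA followed at -0.98 ± 0.89 (edgeR adjusted p = 0.874) and LRP6 at 0.49 ± 0.74 (edgeR adjusted p = 0.958). For CSNK1G3 the change was 0.12 ± 0.41 and for NFATC3 0.06 ± 0.39, so the best-read hosts had differences smaller than their errors. None of 4 circRNAs was called by edgeR, against 1% of circRNAs, and their smallest unadjusted edgeR p was 0.604. TCF7L2 and MACF1, which went from 13 and 10 pooled reads in sensitive HCT116 to 0 in resistant HCT116, were below the depth required, and with no depth requirement both had an edgeR adjusted p of 0.747.

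In Lovo, 0 of 9 WNT hosts were called by edgeR, against 0% of host genes, and 1 of 9 had an unadjusted p under 0.05, against 5.17%. That host was CTBP2, at 142, 151 and 508 CPM in sensitive and 1023, 1056 and 1088 in resistant Lovo. Its log2 fold change was 1.96 ± 1.00 (edgeR adjusted p = 0.859, the unadjusted value being 0.0497), and its reads, 5 against 24, made a ratio of 4.13 (1.54 to 13.9). NFAT5 had -3.71 ± 1.97 (edgeR adjusted p = 0.859), which rests on the 4 reads of 1 sensitive library, and NFATC3 had 0.75 ± 0.47 (edgeR adjusted p = 0.897). Libraries did not overlap for 2 of 9 WNT hosts, CTBP2 and AXIN1, against 11% of host genes, and both hosts had been tested because resistant Lovo was high. AXIN1 had 6 against 19 reads, a ratio of 2.72 (1.05 to 8.33), and a log2 fold change of 1.37 ± 1.11 (edgeR adjusted p = 0.951).

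Of the 4 WNT circRNAs none was called by edgeR in Lovo, against 0% of circRNAs. NFATC3 hsa_circ_0005615 had 2, 4 and 2 reads in sensitive and 7, 10 and 7 in resistant Lovo. These libraries did not overlap, as for 12.3% of circRNAs tested, and the log2 fold change was 1.33 ± 0.73 (edgeR adjusted p = 0.662, the unadjusted value of 0.0661 being the smallest of the 4). Its partner hsa_circ_0000711, from the same start, had 7, 1 and 4 reads in sensitive and 1, 6 and 9 in resistant Lovo, which overlapped (0.22 ± 0.74).

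DESeq2 and limma-voom also called 0 WNT hosts and 0 WNT circRNAs between resistant and sensitive cells in either line, and 0 for the difference between the lines. The resistance effects of the 2 lines were then set against each other. The difference was called by edgeR for 0 of 9 WNT hosts, against 0% of host genes, and for 0 of 4 circRNAs, against 0.333% of circRNAs; no WNT host had an unadjusted p under 0.05, against 6.9%. CSNK1G1 had the smallest p, with 16 reads in sensitive and 5 in resistant HCT116 against 7 and 17 in Lovo, and a difference of -2.76 ± 1.44 on the log2 scale (edgeR adjusted p = 0.719). That difference was -4.81 without sensitive Lovo replicate 2 and -4.21 without resistant HCT116 replicate 1, uncalled in both. NFAT5 had 4.15 ± 2.21 (edgeR adjusted p = 0.719), which became 0.40 without sensitive Lovo replicate 1, and AXIN1 -2.16 ± 1.63 (edgeR adjusted p = 0.794). Over the 9 hosts the median standard error of this difference was 1.37 on the log2 scale.

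**Figure D5:**
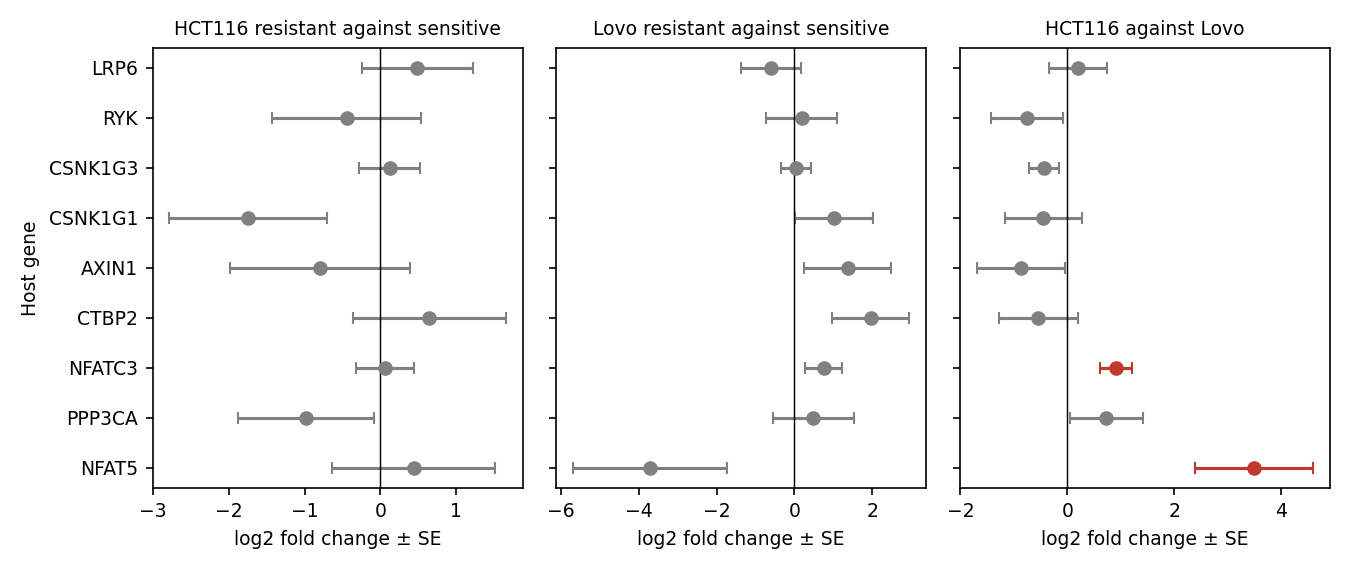
Log2 fold changes (points) with standard errors (bars) of the 9 tested WNT host genes in HCT116 resistant against sensitive cells, Lovo resistant against sensitive cells, and HCT116 against Lovo; red marks an edgeR adjusted p under 0.05. Red appears for NFAT5 (3.49) and NFATC3 (0.90) in the third panel and nowhere in the others.

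The share of all WNT hosts differed little between groups. It was 1.22%, 1.22% and 1.16% of junction reads in sensitive HCT116 and 0.863%, 1.15% and 0.998% in resistant HCT116, or 1.20% ± 0.0360 and 1.00% ± 0.145 (SD, n = 3). The HCT116 groups did not overlap, but the nearest libraries, at 1.158% and 1.153%, were almost equal and their counting intervals overlapped widely. In Lovo it was 1.23%, 0.797% and 1.01% in sensitive and 1.35%, 1.07% and 1.20% in resistant cells, or 1.01% ± 0.217 and 1.21% ± 0.138, which overlapped. Detected WNT circRNAs numbered 34.7 ± 4.16 and 26.3 ± 5.13 per library in sensitive and resistant HCT116, and 22.7 ± 3.51 and 28.0 ± 5.57 in Lovo, with depths that differ between libraries.

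Which junction a host used was compared between the lines for the 3 best-read hosts, chosen after the values were seen. The CSNK1G3 circle hsa_circ_0001522 made 83.0% ± 11.0 of its host's reads in HCT116 libraries and 94.2% ± 9.13 in Lovo libraries (SD, n = 6 each; two-sided exact permutation test, p = 0.0844, adjusted over 3 tests 0.253). NFATC3 hsa_circ_0005615 made 42.2% and 49.9% (exact permutation p = 0.511) and LRP6 hsa_circ_0000378 55.7% and 60.0% (exact permutation p = 0.781). None of the 3 passed.

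A further 137 WNT pathway genes outside the 55 gave 51 hosts in the table, 47 with reads and 8 deep enough to test. This list too was drawn up with earlier results of these data known, so its counts are descriptive only. Between the lines edgeR called 1 of the 8, against 20% of all host genes tested, and it was higher in HCT116: the deubiquitinase gene USP34, whose reads numbered 54 in sensitive cells and 135 in resistant cells of HCT116 and 14 and 17 in those of Lovo (2.24 ± 0.32, edgeR adjusted p = 2.23e-10). None of the 8 was called in edgeR between resistant and sensitive cells of HCT116 or Lovo, or for the difference. In HCT116 2 of the 8 had an unadjusted p under 0.05, against 6.38% of host genes: USP34 and CREBBP, which encodes an acetyltransferase that binds beta-catenin. In Lovo 0 of the 8 had one, against 5.17%, and for the difference 1 of the 8, CREBBP, against 6.9%. CREBBP had 42 reads in sensitive and 13 in resistant HCT116 against 10 and 15 in Lovo (difference -2.08 ± 1.06, edgeR adjusted p = 0.719).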

How the data were processed

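The deposited table holds raw back-splice junction read counts for each circRNA in each library, per the file headers. It also has each circle's host gene, class, circBase identifier, strand and position, and a predicted length in bases, a score that was used as deposited. The submitters' processing notes name, without roles, STAR 2.5.1b, cutadapt 1.9.3, the build hg19 and edgeR 3.16.5. Not given in the sources used here are the circRNA caller, the annotation, the minimum for listing and whether the counting of these directional libraries used strand. No genome sequence was used. Positions are 1-based as the table writes them.

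Counts were tested as deposited, per circRNA and summed per host gene, with edgeR 4.0.16 in R 4.3.3: TMM scaling, filterByExpr (minimum count 5, minimum total 15), glmQLFit and glmQLFTest over all 12 libraries with 4 group means (8 residual degrees of freedom), and Benjamini-Hochberg adjustment over all features tested. The test was checked on simulated counts with an assumed spread and with changes placed in resistant HCT116 alone. That check covered the HCT116 resistance contrast and not the contrast between the lines. The standard error is the size of the log2 fold change divided by the square root of F. Levels are CPM after TMM scaling. The line contrast weighs both states equally. Ratios of pooled reads carry 95% intervals from the exact conditional binomial, scaled by effective library size. These intervals cover counting error alone, because the reads have no molecular identifiers and are not independent molecules. A group at 0 was given a floor of 3 reads, and the resulting limits leave out the counting error of the other group. Usage tests used scipy 1.17.1.

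Alternatives were RLE or total counts, other depth filters, DESeq2 1.42.0, limma-voom (limma 3.58.1), a replicate block, other sets of libraries or junctions, and each library left out. Genes described are the 20 hosts with the most pooled reads, those called, and the 3 smallest p per contrast. The WNT genes, their roles and the other lists were chosen with earlier results of these data known.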

Additional observations from a re-analysis of the deposited data

How the results depend on the processing

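Of 618 alternative values for 39 results, 562 kept the direction and side of the threshold, or for counts and shares stayed close to the reported value. Most of these results were uncalled changes or counts of 0 calls, which had little room to cross the threshold. The NFATC3 call between the lines was lost in 10 of 22 alternatives. Leaving out libraries for role sums and for the limits of TCF7L2 and MACF1 was chosen after seeing the data. The 2 WNT hosts called between the lines became 1 with total counts, with no filter, with a minimum count of 10 (where NFAT5 was not tested) and in the resistant groups alone, 0 in the sensitive groups alone, and 1 to 2 with 1 library left out. NFATC3 had an edgeR adjusted p of 0.0559 with total counts and 0.167 with no filter. The 0 WNT circRNAs called between the lines became 1 with total counts, and 0 to 1 with 1 library left out: NFAT5 hsa_circ_0006845 without resistant HCT116 replicate 1 or sensitive Lovo replicate 1, and CSNK1G3 hsa_circ_0001522 without sensitive Lovo replicate 2. The counts of 0 in the resistance contrasts and their difference held in every alternative run.

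Signs turned only for uncalled changes. In HCT116, NFATC3 hsa_circ_0005615 (-0.08) was 0.0527 with total counts, 0.00154 with no filter and 0.0118 with junctions within 5 bases merged, and -0.39 to 0.34 with 1 library left out; hsa_circ_0000711 was -0.68 to 0.13. In Lovo, hsa_circ_0000711 was -0.49 to 0.93. CSNK1G3 hsa_circ_0001522 in Lovo (0.11) was -0.0568 with RLE and with DESeq2, -0.0472 with a minimum count of 10, -0.00627 with the line fitted alone, and -0.30 to 0.92 with 1 library left out. NFAT5 in Lovo was -4.27 to 0, the 0 without sensitive replicate 1, when both groups had no read. For the difference of effects, hsa_circ_0000711 was -1.03 to 0.36, and hsa_circ_0001522 was -0.0634 with limma-voom and -0.68 to 0.54 with 1 library left out. The cause was not tested.

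Replicate numbers showed no clear pairing of the libraries. Correlations of same-numbered deviations ran from -0.0448 to 0.0744, and those of differently numbered ones from -0.0673 to 0.0693. At such low counts a weak pairing could go unseen. With a replicate block, 2 WNT hosts were called between the lines (NFAT5 3.71, edgeR adjusted p = 0.0117; NFATC3 0.90, edgeR adjusted p = 0.0278) and 0 in the other contrasts. At this depth 9 of 40 hosts and 4 of 166 circRNAs could be tested.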
